A study of Mus musculus with 6 samples.

Results

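The genes described here encode the translation initiation factors, measured by array in KLS cells of wild-type and Dnmt3a+/- mice. Members were the probe sets whose platform annotation gives exactly 1 gene symbol starting with Eif1, Eif2, Eif3, Eif4, Eif5 or Eif6, leaving out the Eif2ak kinases and the Y-linked Eif2s3y. This gave 1062 probe sets of 1256831 and 52 genes of the 20059 genes tested. Of the 52 genes, 47 are initiation factors or their direct partners. The other 5 carried such a symbol only by its letters: 4 listed as Eif2c1 to Eif2c4 are now named Ago1 to Ago4 and encode Argonaute proteins, and Eif5al3 is a pseudogene of Eif5a. All 52 kept at least 1 probe set above the filter on dim signals, and 972 of their 1062 probe sets lay above it. Counts below refer to the 47 genes, and the other 5 are described apart.

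KLS cells are marrow cells sorted as positive for Kit and Sca-1 and negative for lineage markers, a fraction rich in blood-forming stem cells and early progenitors. Each genotype had 3 arrays, wild-type KLS cells and Dnmt3a+/- KLS cells, the latter heterozygous for a disrupted Dnmt3a gene. By its title, the study concerns how this loss predisposes to myeloid malignancy. The labels name no strain, age, sex, allele construction or pooling of animals, and do not say whether arrays came from separate mice. The spread behind each p-value is thus that between arrays, and it may be technical.

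Initiation factors bring the small ribosomal subunit, the initiator tRNA and the messenger RNA together at a start codon. The factor eIF2 carries the tRNA and is recharged with GTP by eIF2B. The large complex eIF3 holds the small subunit, and eIF4F binds the cap of the messenger and unwinds its leader. In blood-forming stem cells protein synthesis is known to be kept low, and both eIF2 phosphorylation and the eIF4E binding proteins are known points of its control.

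Dnmt3a encodes a DNA methyltransferase, so promoters are shown for 4 members whose genotypes did not overlap, those of smallest p that the RefSeq promoter table (GRCm38.p6) held. The 200 bases before the annotated start are given on the gene's own strand, with every CG dinucleotide, the site of DNA methylation, in capitals. They are Eif5a2 (chr3:28781077-28781276, plus strand), Eif4enif1 (chr11:3202153-3202352, plus strand), Eif2b1 (chr5:124579132-124579331, minus strand) and Eif4h (chr5:134639410-134639609, minus strand).
Eif5a2: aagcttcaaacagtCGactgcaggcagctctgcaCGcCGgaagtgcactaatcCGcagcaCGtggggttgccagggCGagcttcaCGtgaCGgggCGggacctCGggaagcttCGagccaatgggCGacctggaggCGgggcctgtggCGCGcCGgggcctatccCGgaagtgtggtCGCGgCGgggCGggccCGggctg
Eif4enif1: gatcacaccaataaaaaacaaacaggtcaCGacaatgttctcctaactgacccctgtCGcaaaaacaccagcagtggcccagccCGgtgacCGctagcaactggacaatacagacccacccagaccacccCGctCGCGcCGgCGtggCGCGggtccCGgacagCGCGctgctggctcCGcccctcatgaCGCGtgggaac
Eif2b1: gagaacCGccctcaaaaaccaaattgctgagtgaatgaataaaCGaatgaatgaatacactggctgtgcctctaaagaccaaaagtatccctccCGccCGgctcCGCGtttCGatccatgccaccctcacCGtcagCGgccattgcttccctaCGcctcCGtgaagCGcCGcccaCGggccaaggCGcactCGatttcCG
Eif4h: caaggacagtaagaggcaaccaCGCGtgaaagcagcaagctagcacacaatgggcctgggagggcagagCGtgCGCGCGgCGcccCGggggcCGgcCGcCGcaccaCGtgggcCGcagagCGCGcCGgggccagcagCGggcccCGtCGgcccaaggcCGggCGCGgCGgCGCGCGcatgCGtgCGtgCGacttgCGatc
Of these windows, the one of Eif5a2 held 22 CG dinucleotides, that of Eif4enif1 17, that of Eif2b1 17 and that of Eif4h 30. Of the 47 genes, 36 had a promoter in the table, taken at the first listed start. Over the 250 bases before the start, these promoters held a median of 19.5 CG dinucleotides (7 to 42), against a median of 6 over the 27025 promoters of the table. The motif GGGCGG, bound by Sp family factors, was found on either strand in 26 of the 36 promoters, or 72.2%, against 32.9% of all promoters. The motif CGGAAG, the core of Ets family sites, stood in 15 (41.7%, against 13.8%). The E-box CACGTG, which Myc and other factors bind, stood in 7 (19.4%, against 6.05%). The motif TATAAA stood in 3 (8.33%, against 13%) and CCAAT in 9 (25%, against 34.5%). GGGCGG and CGGAAG can overlap in the letters CGG, and both hold a CG, as does CACGTG, so these shares go with the CG content. The promoters compared with were not matched for signal level, so these shares are not shown to be particular to initiation factors. DNA methylation was not measured here, and a match describes letters only.

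Dnmt3a itself read 8.51, 8.70 and 8.50 on the wild-type arrays and 8.38, 8.20 and 8.20 on the Dnmt3a+/- arrays, on the log2 scale of the deposited intensities. The genotypes did not overlap, and the difference was -0.31 (SE 0.12, exact two-sided permutation p = 0.1, the smallest that 3 against 3 arrays allow). It did not pass over all genes (limma, adjusted p = 0.631). Kit stood at -0.11 (SE 0.10) with genotypes apart. The Sca-1 gene Ly6a stood at -0.02 (SE 0.13). The mean log2 level of the 6 of 8 neutrophil markers with probe sets above the filter ran from 9.46 to 10.27 in wild-type and from 9.93 to 10.69 in Dnmt3a+/- cells. Retnlg stood at 0.98 (SE 0.22) with genotypes apart. The rest of these 6 overlapped: S100a9 at 0.46 (SE 0.27), S100a8 at 0.43 (SE 0.29), Camp at 0.25 (SE 0.37), Ltf at 0.08 (SE 0.37) and Mpo at -0.17 (SE 0.14). Ly6g, below the filter, read 4.44, 4.20 and 4.04 on wild-type against 4.55, 4.63 and 4.47 on Dnmt3a+/- arrays. For 2 of 5 erythroid markers the ranges were 6.87 to 7.03 and 6.85 to 7.26, with Klf1 highest on Dnmt3a+/- replicate 2 (7.20). For 5 of 5 monocyte and macrophage markers the ranges were 7.44 to 7.63 and 7.59 to 7.76, with Csf1r at -0.73 (SE 0.19) against Vcam1 at 0.78 (SE 0.29) and Adgre1 at 0.42 (SE 0.15), each with genotypes apart. The ranges for 5 of 5 T and NK cell markers were 6.50 to 6.69 and 6.69 to 6.87, just apart, and for 3 of 4 B cell markers 6.62 to 7.05 and 6.83 to 7.31. Cd3e stood at 0.33 (SE 0.12) with genotypes apart. Overlapping were Ncr1 at 0.45 (SE 0.18), Cd8a at 0.20 (SE 0.13), Cd3g at 0.10 (SE 0.13) and Cd4 at -0.03 (SE 0.13). So were the B cell genes Cd79a at 0.85 (SE 0.33), Pax5 at 0.10 (SE 0.13) and Ms4a1 at -0.10 (SE 0.21). For 5 of 6 stem and multipotent progenitor markers the ranges were 8.63 to 8.67 and 8.47 to 8.57, apart on the lower side. Each gene overlapped, with Flt3 at -0.32 (SE 0.16), Cd34 at -0.23 (SE 0.13) and Mecom at -0.08 (SE 0.10). Procr stood at -0.03 (SE 0.15) and Slamf1 at 0.02 (SE 0.13). Array signals have no true zero, so no marker can be called absent, and the part of these cells in the results below was not tested. Dnmt3a+/- replicate 2 stood apart from the other arrays, with a mean correlation across genes of 0.904 with them, where the others had 0.938 to 0.949. The list and role-group medians and most genes given on each array are therefore also stated without it.

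Most initiation factor genes had slightly lower means in Dnmt3a+/- cells, as did most bright genes, and none passed the test. Differences are Dnmt3a+/- minus wild-type. Of the 47 genes, 41 had a difference below 0, and the median was -0.17. Over all genes tested 54.3% lay below 0, with a median of -0.02. By signal, 29 of the 47 genes belonged to the brightest 10% of genes, where 81.1% of all genes lay below 0 with a median of -0.12. The 29 were all below 0, with a median of -0.18. No member passed at adjusted p 0.05 (limma), and neither did any other gene (0 of 20059, or 0%). At an unadjusted p under 0.05, 2 of the 47 lay lower, against 4.57% of all genes and 6.18% of the brightest 10%, and 1 lay higher, against 2.92% of all genes. Together these are 6.38% of the members, near the 7.49% of all genes. Genotypes did not overlap for 7 members on the lower side, or 14.9%, against 9.05% of all genes and 17% of the brightest 10%. On the higher side this held for 1 member, against 6.74% of all genes. Neither share on the lower side exceeded that of the brightest 10% of genes. That comparison depended on wild-type replicate 1, the lowest wild-type array for 35 of the 47 genes. Without it the genotypes were apart on the lower side for 25 of 47, or 53.2%, against 34% of the brightest 10% and 17.2% of all genes. That array is singled out as low in these same genes, and 2 against 3 arrays are more easily apart. Nothing is therefore concluded from this rise. Without Dnmt3a+/- replicate 2 instead, 7 of 47 were apart on the lower side (14.9%), against 18.8% of the brightest 10% and 12.5% of all genes.

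**Figure D1:**
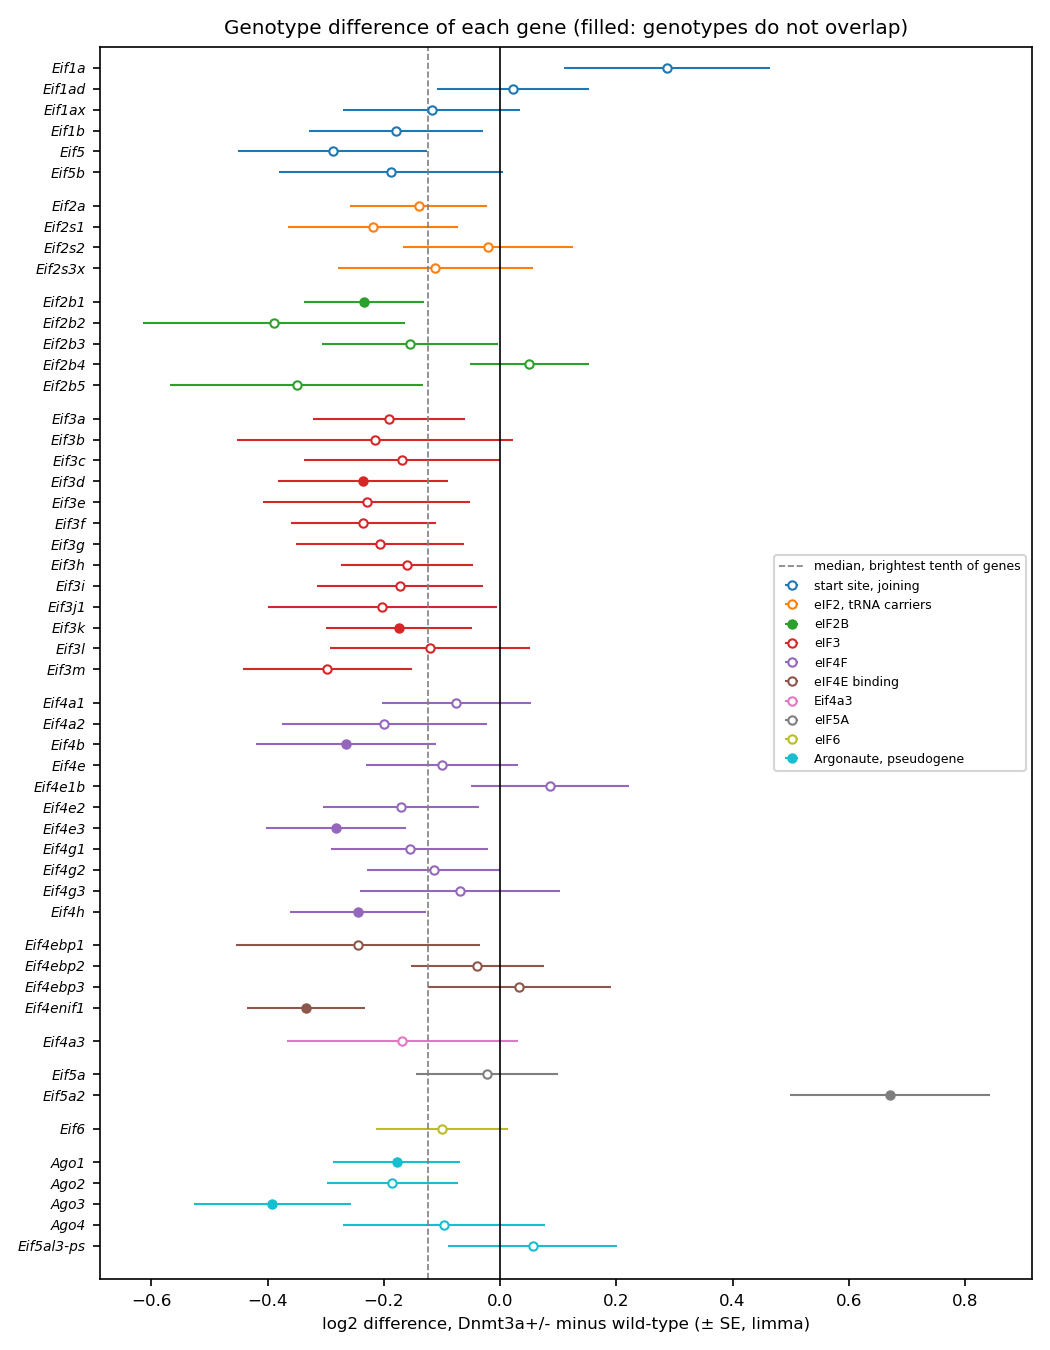
Log2 difference (Dnmt3a+/- minus wild-type, x axis) with the limma standard error for each of the 52 genes, coloured by role and filled where the 3 arrays of one genotype do not overlap those of the other. Most genes lie left of 0 around the dashed line, the median of the brightest 10% of genes (-0.12), while Eif5a2 (0.67) and Eif1a (0.29) lie to the right.

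**Figure D2:**
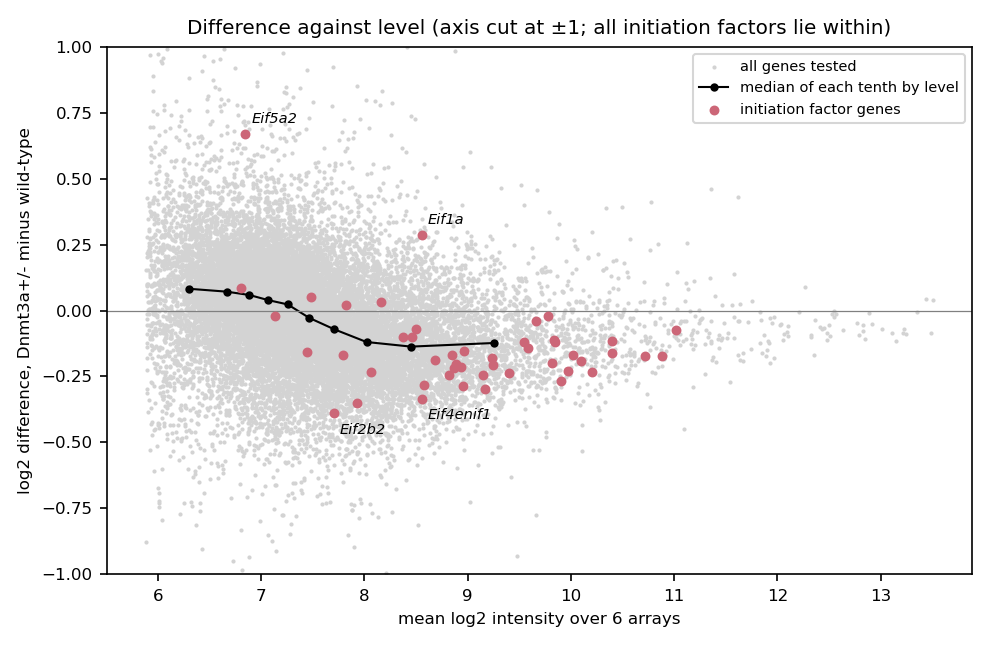
Log2 difference against mean log2 intensity for all genes tested (grey), with the median of each 10% of genes by level (black line) and the 47 initiation factor genes (red). The black line runs from 0.08 in the dimmest to -0.12 in the brightest genes, and most initiation factors lie on the bright side, while Eif5a2 is a dim gene well above the line.

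The size of the shift depended on Dnmt3a+/- replicate 2 and on wild-type replicate 1. Relative to each gene's wild-type mean, the median of the 47 genes was -0.12, 0.08 and 0.04 on the wild-type arrays and -0.07, -0.39 and -0.03 on the Dnmt3a+/- arrays. The low wild-type replicate 1 thus lay below Dnmt3a+/- replicates 1 and 3. On Dnmt3a+/- replicate 2, 39 of the 47 genes read below every wild-type array (83%), where 70.2% of the brightest 10% of genes did. That array was the lowest of all 6 for 37 members. On Dnmt3a+/- replicates 1 and 3 the counts below every wild-type array were 16 (34%) and 10 (21.3%). Of the brightest 10% of genes, 36.1% and 31% did so, and of all genes 24.4% and 29.2%. Without Dnmt3a+/- replicate 2 the median difference of the members was -0.04 and 30 of 47 lay below 0 (63.8%). In the brightest 10% of genes the median was then -0.05 and 1298 of 2006 lay below 0, as did 51.5% of all genes. With wild-type replicate 1 also left out, the median was -0.11, against a median of -0.08 in the brightest 10%. Of the 47 genes 42 then lay below 0 (89.4%), against 51.3% of all genes. After cyclic loess, which evens out level-dependent shifts between arrays, the median was -0.06 and 33 of 47 lay below 0 (70.2%). In the brightest 10% of genes the median was then -0.0040 and 1027 of 2006 lay below 0, as did 49.2% of all genes. In a bulk sample, fewer cells of a type and less RNA per cell cannot be told apart.

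**Figure D3:**
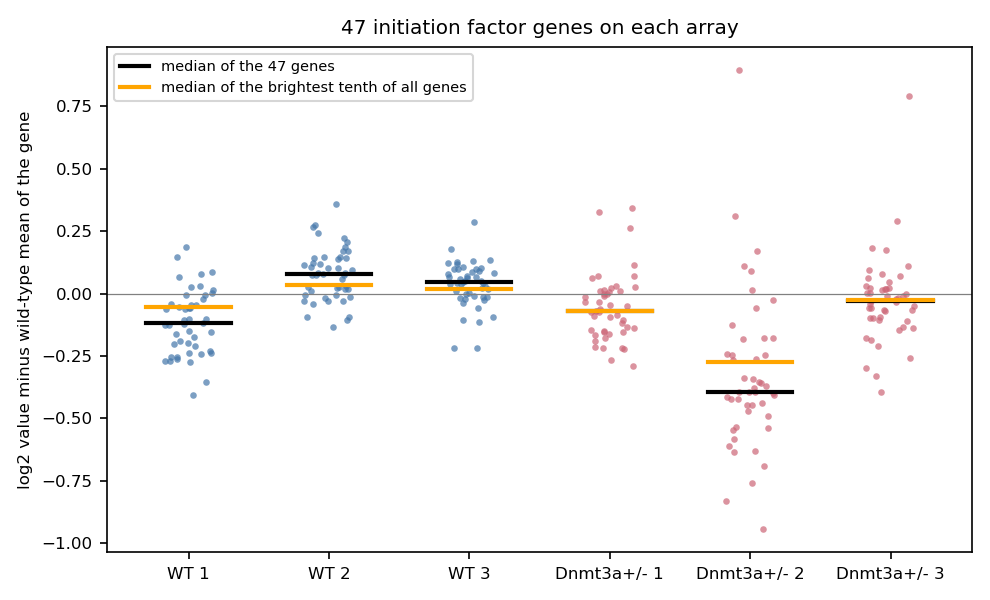
Log2 value of each of the 47 genes minus its wild-type mean (y axis) on each of the 6 arrays, with the median of these genes (black) and of the brightest 10% of all genes (orange). Dnmt3a+/- replicate 2 lies lowest at -0.39, and wild-type replicate 1 at -0.12 lies below the remaining Dnmt3a+/- arrays.

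Factors that select the start codon and join the subunits lay on both sides of 0. Of 6 genes 4 lay below 0, with a median of -0.15, none with an unadjusted p under 0.05 and none with genotypes apart. The median was -0.011 without Dnmt3a+/- replicate 2 and -0.020 after cyclic loess. Eif5, the GTPase activator of eIF2, had the smallest p, at 8.996, 9.18 and 9.12 on wild-type against 8.93, 8.46 and 9.03 on Dnmt3a+/- arrays. Its difference of -0.29 (SE 0.16) was -0.12 without Dnmt3a+/- replicate 2, the lowest array. Eif5b, which joins the large subunit, stood at -0.19 (SE 0.19), and Eif1b, a copy of the start codon factor eIF1, at -0.18 (SE 0.15). Eif1 itself was not analysed here.

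The genes for eIF1A, the partner of eIF1 in scanning, differed in sign. Eif1a read 8.01, 8.53 and 8.70 on wild-type against 8.67, 8.72 and 8.71 on Dnmt3a+/- arrays, a difference of 0.29 (SE 0.18). Only the first wild-type array was clearly low, and without it the difference was 0.08. The X-linked Eif1ax, listed on the platform under the name Eif1ay, stood at -0.12 (SE 0.15, 95% confidence interval -0.47 to 0.24). The difference between these genes was not tested, and near-identical copies can share probe signal. Eif1a was singled out after its values were seen. Eif1ad, which encodes a protein with an eIF1A-like domain, stood at 0.02 (SE 0.13).

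The subunits of eIF2 and the related tRNA carrier eIF2A all lay below 0, though none had genotypes apart. The median of the 4 genes was -0.13, with -0.10 without Dnmt3a+/- replicate 2 and -0.03 after cyclic loess. Eif2s1, the alpha subunit that stress kinases phosphorylate, read 8.87, 9.04 and 9.02 on wild-type against 8.81, 8.49 and 8.97 on Dnmt3a+/- arrays. Its difference of -0.22 (SE 0.15) shrank to -0.08 without Dnmt3a+/- replicate 2. The others were Eif2a at -0.14 (SE 0.12), Eif2s3x, the gamma subunit, at -0.11 (SE 0.17) and Eif2s2, the beta subunit, at -0.02 (SE 0.15). Eif2s3x turned to 0.02 without Dnmt3a+/- replicate 2.

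In the exchange factor eIF2B, 4 of 5 subunit genes lay below 0, with a median of -0.23. This median was -0.11 without Dnmt3a+/- replicate 2 and -0.13 after cyclic loess. Eif2b1, the alpha subunit, read 8.25, 8.15 and 8.14 on wild-type against 7.96, 7.997 and 7.88 on Dnmt3a+/- arrays. Every Dnmt3a+/- array lay below every wild-type array, the difference was -0.23 (SE 0.10, limma adjusted p = 0.631), and it was -0.26 without Dnmt3a+/- replicate 2. It was -0.12 after cyclic loess. Eif2b2 had the lowest difference of the 47 genes, -0.39 (SE 0.23), from a wild-type mean of 7.90 ± 0.09 (SD, n = 3) and 7.86, 6.95 and 7.71 on the Dnmt3a+/- arrays. Replicate 2, at 6.95, lay far below the other arrays, and without it the difference was -0.11. Eif2b5 likewise went to -0.11 without that array. Eif2b5, the catalytic subunit, stood at -0.35 (SE 0.22), Eif2b3 at -0.16 (SE 0.15) and Eif2b4 at 0.05 (SE 0.10).

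All 13 measured eIF3 genes lay below 0, in a narrow range from -0.30 to -0.12 with a median of -0.20. Each belonged to the brightest 10% of genes, where 81.1% lay below 0. None had an unadjusted p under 0.05, and 2 had genotypes apart (15.4%, against 9.05% of all genes and 17% of the brightest 10%). Eif3m, a subunit of the octamer core, had the smallest p, at 9.04, 9.52 and 9.38 on wild-type against 9.02, 8.92 and 9.10 on Dnmt3a+/- arrays, a difference of -0.30 (SE 0.15). The first wild-type array lay within the Dnmt3a+/- range. Without Dnmt3a+/- replicate 2 the difference was -0.25, and after cyclic loess -0.16. Eif3k read 10.97, 10.97 and 10.98 on wild-type against 10.88, 10.58 and 10.94 on Dnmt3a+/- arrays. Its wild-type arrays were the closest together of the eIF3 genes, with an SD of 0.0087, so a small shift set the genotypes apart. Its difference of -0.17 (SE 0.13) was -0.06 without Dnmt3a+/- replicate 2. Eif3d, a subunit that can bind the cap itself, read 9.46, 9.54 and 9.56 on wild-type against 9.45, 8.98 and 9.42 on Dnmt3a+/- arrays. Its difference of -0.24 (SE 0.15) was -0.08 without that array.

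The other eIF3 subunits overlapped between genotypes. Eif3a, the scaffold of the complex, stood at -0.19 (SE 0.13), Eif3b at -0.22 (SE 0.24), Eif3c at -0.17 (SE 0.17), Eif3e at -0.23 (SE 0.18) and Eif3f at -0.24 (SE 0.13). Eif3g stood at -0.21 (SE 0.14), Eif3h at -0.16 (SE 0.11), Eif3i at -0.17 (SE 0.14) and Eif3l at -0.12 (SE 0.17). The subunit eIF3j, given as Eif3j on the platform and counted as Eif3j1, stood at -0.20 (SE 0.20), and its probe sets may also read the copy Eif3j2. On single arrays the eIF3 median was -0.19, 0.08 and 0.06 on wild-type against -0.09, -0.42 and -0.07 on Dnmt3a+/- arrays. On Dnmt3a+/- replicate 2 all 13 genes read below every wild-type array, where 70.2% of the brightest 10% of genes did. On Dnmt3a+/- replicates 1 and 3 the counts were 5 (38.5%) and 2 (15.4%), against 36.1% and 31% of the brightest 10%. Without Dnmt3a+/- replicate 2 the median of the 13 differences was -0.07, and after cyclic loess it was -0.08. Leaving out that array put Eif3b (0.02), Eif3l (0.03) and Eif3j1 (0.01) above 0, while the rest stayed below. The largest wild-type shift, -0.19 on replicate 1, was larger in size than those on Dnmt3a+/- replicates 1 and 3.

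Among the cap complex eIF4F and its helpers 10 of 11 genes lay below 0, with a median of -0.16. That median was -0.04 without Dnmt3a+/- replicate 2 and -0.02 after cyclic loess. In 3 of the 11 genes the genotypes were apart on the lower side, against the 9.05% of all genes and 17% of the brightest 10%. Eif4e3, a divergent cap-binding relative of eIF4E, read 8.86, 8.59 and 8.71 on wild-type against 8.53, 8.46 and 8.33 on Dnmt3a+/- arrays. Its difference of -0.28 (SE 0.12, limma adjusted p = 0.631) was -0.29 without Dnmt3a+/- replicate 2 and -0.15 after cyclic loess. Its 10 used probe sets did not move together, with differences from -0.88 to 0.67, and the brightest of them stood at 0.09. Eif4h, which stimulates the helicase eIF4A, read 9.23, 9.26 and 9.32 on wild-type against 9.13, 8.85 and 9.09 on Dnmt3a+/- arrays. Its difference was -0.24 (SE 0.12), with -0.16 without Dnmt3a+/- replicate 2 and 0.10 in its brightest probe set. Eif4b, another helper of eIF4A, read 10.04, 10.14 and 9.93 on wild-type against 9.93, 9.46 and 9.93 on Dnmt3a+/- arrays. Its genotypes were barely apart, and the difference of -0.27 (SE 0.15) was -0.11 without Dnmt3a+/- replicate 2.

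The core of eIF4F overlapped between genotypes. Eif4e, the cap-binding protein, stood at -0.10 (SE 0.13, 95% confidence interval -0.40 to 0.20). Eif4g1, the main scaffold, stood at -0.16 (SE 0.14) and its relatives Eif4g2 and Eif4g3 at -0.11 (SE 0.11) and -0.07 (SE 0.17). The helicase gene Eif4a1 read 10.94, 11.20 and 11.04 on wild-type against 11.06, 10.81 and 11.08 on Dnmt3a+/- arrays, a difference of -0.07 (SE 0.13). Its relative Eif4a2 stood at -0.20 (SE 0.18), Eif4e2 at -0.17 (SE 0.13) and the germ cell form Eif4e1b, a dim gene, at 0.09 (SE 0.14). Eif4a3, the relative in the exon junction complex, read 8.73, 9.02 and 9.04 on wild-type against 8.94, 8.32 and 9.02 on Dnmt3a+/- arrays, and its difference of -0.17 (SE 0.20) turned to 0.05 without Dnmt3a+/- replicate 2.

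Of the genes for proteins that bind eIF4E, Eif4enif1 had the lowest difference, and those of the inhibitory 4E-BPs overlapped between genotypes. None of the 4 passed over all genes. The median of the 4 genes was -0.14, with 0.02 without Dnmt3a+/- replicate 2. Eif4enif1 encodes 4E-T, which carries eIF4E into the nucleus and to sites of messenger storage. It read 8.73, 8.73 and 8.70 on wild-type against 8.46, 8.31 and 8.39 on Dnmt3a+/- arrays. All Dnmt3a+/- arrays lay below all wild-type arrays, and replicate 2 was not far from the others. The mean went from 8.72 ± 0.02 to 8.39 ± 0.07 (SD, n = 3). The difference of -0.33 (SE 0.10, 95% confidence interval -0.57 to -0.10) is a fold of 0.793. The unadjusted limma p of 0.0115 became an adjusted p of 0.631 over all genes. Without Dnmt3a+/- replicate 2 the difference was -0.30, and after cyclic loess -0.20. Eif4ebp1, a repressor of eIF4E under mTOR control, read 9.03, 8.92 and 8.89 on wild-type against 8.96, 8.19 and 8.96 on Dnmt3a+/- arrays, a difference of -0.24 (SE 0.21). Only replicate 2 lay below the wild-type range, and without it the difference was 0.01. Eif4ebp2 stood at -0.04 (SE 0.11) and Eif4ebp3, on 4 probe sets, at 0.03 (SE 0.16).

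Eif5a2 was the member with the smallest p and the only one of the 47 whose Dnmt3a+/- arrays all lay above the wild-type arrays. It encodes the second form of eIF5A, the hypusine-bearing factor that also aids elongation and is known for low levels in most tissues. It read 6.70, 6.42 and 6.42 on wild-type against 6.84, 7.41 and 7.30 on Dnmt3a+/- arrays. The mean went from 6.51 ± 0.16 to 7.18 ± 0.30 (SD, n = 3). The difference of 0.67 (SE 0.17, 95% confidence interval 0.27 to 1.07) is a fold of 1.59, with an unadjusted limma p of 0.0046 and an adjusted p of 0.631. It was 0.56 without Dnmt3a+/- replicate 2 and 0.62 after cyclic loess. Its main form Eif5a read 9.73, 9.80 and 9.83 on wild-type against 9.67, 9.66 and 9.96 on Dnmt3a+/- arrays, a difference of -0.02 (SE 0.12, 95% confidence interval -0.31 to 0.26). The difference between these forms was not tested. Dim genes as a group also lay above 0, with a median of 0.06 in the 10% of genes by level that held Eif5a2.

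Eif6, which keeps the ribosomal subunits apart, read 8.38, 8.50 and 8.40 on wild-type against 8.43, 8.19 and 8.37 on Dnmt3a+/- arrays. The difference was -0.10 (SE 0.11), the arrays overlapped, and the sign turned after cyclic loess (0.03).

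**Figure D4:**
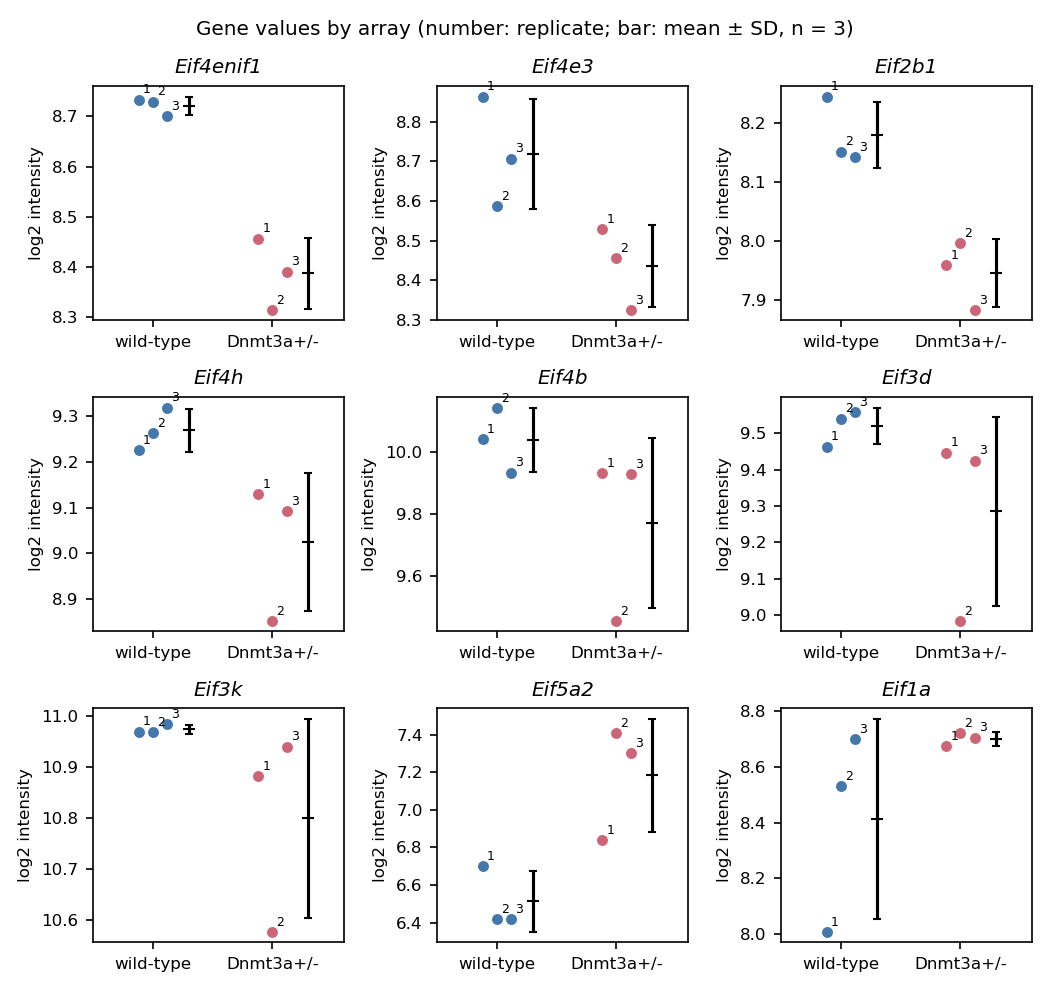
Log2 intensity on each array for 9 initiation factor genes, with replicate numbers beside the points and the mean ± SD of 3 arrays as bars. Eif4enif1 and Eif2b1 are low on all 3 Dnmt3a+/- arrays, while in Eif4b, Eif3d and Eif3k replicate 2 lies far below the others.

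Single probe sets show how evenly a gene's signal moved. Of the 854 used probe sets of the 47 genes, 634 lay below 0, or 74.2%, with a median of -0.14. At an unadjusted p under 0.05 there were 29 lower and 2 higher, or 3.63% in all, where 3.41% of all probe sets were lower and 2.8% higher. Genotypes were apart for 69 on the lower side (8.08%, against 6.1% of all probe sets) and for 8 on the higher side (against 6.31%). None passed over the 628415 probe sets at adjusted p 0.05 (limma, 0%).

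All 7 used probe sets of Eif5a2 lay above 0 (0.22 to 1.08). Probe set 5313236 read 6.80, 6.37 and 6.28 on wild-type against 6.88, 7.53 and 7.04 on Dnmt3a+/- arrays, and was the 1 of the 7 with genotypes apart, at 0.67 (SE 0.25). The others were 4595544 at 1.08 (SE 0.54), 4409829 at 1.01 (SE 0.37), 4817432 at 0.91 (SE 0.60), 5281751 at 0.49 (SE 0.29), 4720732 at 0.31 (SE 0.38) and 5207051 at 0.22 (SE 0.20). The brightest, 5207051, thus had the smallest difference. The 3 probe sets of Eif5a2 below the filter had differences of 0.11, 0.12 and 1.05.

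Eif4enif1 was uneven. Of its 29 used probe sets 19 lay below 0 and 10 above, with a range from -1.52 (probe set 5199532, SE 0.59) to 0.36 (probe set 4994765, SE 0.26). Genotypes were apart in 8 (27.6%, against 6.1% of all probe sets on the lower side), each time with Dnmt3a+/- lower. Of these 5 had an unadjusted p under 0.05 (limma), or 17.2% of the 29, against 3.41% of all probe sets. Probe sets of 1 gene were read on the same 6 arrays, so these counts are not independent. Probe set 4732371 had the smallest of these, at -0.56 (SE 0.17), and 4313233 stood at -1.11 (SE 0.41). The brightest probe set, 5457529, stood at -0.90 (SE 0.41) with overlapping genotypes, and the next brightest, 5360054, at 0.19 (SE 0.19). The gene value is therefore a mean over probe sets with unlike differences, and their places in the transcript were not used here. Eif2b1 had 10 of 12 used probe sets below 0, Eif3k 11 of 12, Eif3e 20 of 21 and Eif3h 16 of 16.

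**Figure D5:**
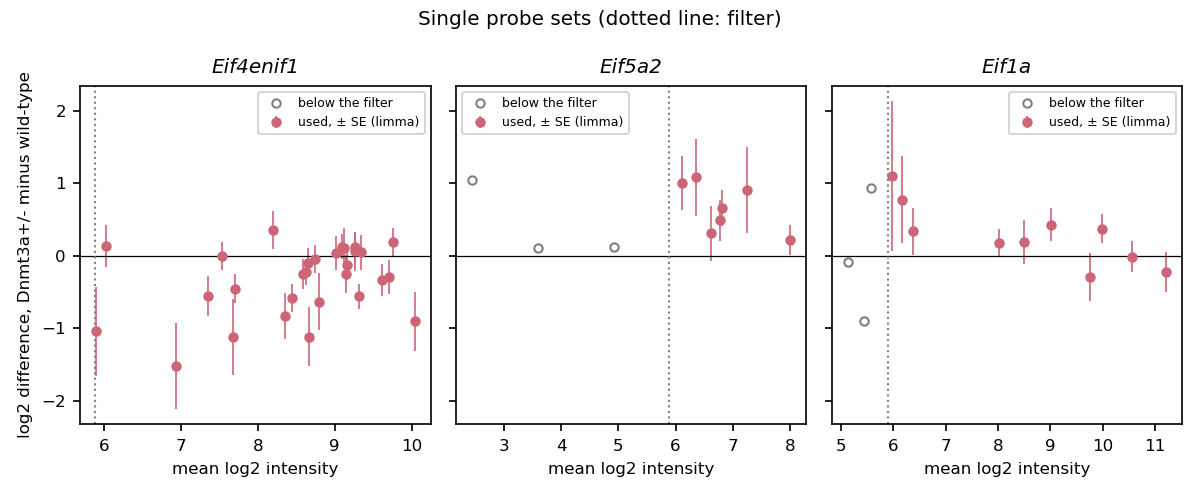
Log2 difference (Dnmt3a+/- minus wild-type, y axis) against mean log2 intensity of the single probe sets of Eif4enif1, Eif5a2 and Eif1a, with limma standard errors for those used (filled) and none for those below the filter (open). All 7 used probe sets of Eif5a2 lie above 0, those of Eif4enif1 spread from -1.52 to 0.36, and the largest positive values of Eif1a come from probe sets near the filter.

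Genes around initiation that the member rule leaves out also lay mostly below 0. Of 50 such genes, all measured, 43 lay below 0 (86%), with a median of -0.16, where 54.3% of all genes and 81.1% of the brightest 10% did. At an unadjusted p under 0.05, 6 lay lower (12%, against 4.57% of all genes and 6.18% of the brightest 10%) and 0 higher (limma), and 0 passed over all genes. Most of the 50 were dimmer than the brightest 10%, and of the 6 only Eef2k belonged to it. In the 10% of genes next in brightness 170 of 2006 lay lower by this measure, and in the 10% after that 160 of 2006. Genotypes were apart for 10 on the lower side (20%, against 9.05% and 17%) and for 1 on the higher side. On the lower side the share was 19% in the 10% of genes next in brightness and 15.8% in the 10% after that. Without Dnmt3a+/- replicate 2 the median was -0.09 and 34 of 50 lay below 0, where 51.5% of all genes and 1298 of 2006 in the brightest 10% did. At an unadjusted p under 0.05 (limma), 3 then lay lower and 2 higher, where 2.95% of all genes lay lower and 5.41% in either direction. Genotypes were apart on the lower side for 11 (22%, against 18.8% of the brightest 10%). After cyclic loess the median was also -0.09, with 34 of 50 below 0, where 49.2% of all genes and 1027 of 2006 in the brightest 10% were. There, 3 lay lower and 2 higher at an unadjusted p under 0.05 (limma), where 3.33% of all genes lay lower and 6.59% in either direction. Genotypes were then apart on the lower side for 5 (10%, against 6.53% of the brightest 10%). On single arrays the median of the 50 was -0.07, 0.08 and 0.01 on wild-type against -0.08, -0.33 and -0.06 on Dnmt3a+/- arrays.

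The 6 with the smallest p were all lower in Dnmt3a+/- cells. Mcts2 and Mcts1 encode near-identical partners of the recycling and reinitiation factor Denr, and their probe sets may share signal. Mcts2 read 8.77, 8.70 and 8.88 on wild-type against 8.47, 8.17 and 8.16 on Dnmt3a+/- arrays, a difference of -0.52 (SE 0.13), and Mcts1 stood at -0.32 (SE 0.13). Eif2ak2, the double-stranded RNA sensor PKR that phosphorylates eIF2 and is induced by interferon, read 8.25, 8.52 and 8.35 on wild-type against 7.99, 8.01 and 7.81 on Dnmt3a+/- arrays, a difference of -0.44 (SE 0.12). Tsc1, a brake on mTOR, stood at -0.28 (SE 0.11), the mitochondrial initiation factor Mtif2 at -0.27 (SE 0.11) and Eef2k, the kinase that slows elongation, at -0.30 (SE 0.13). For each of these 6 the genotypes were apart and the limma adjusted p was 0.631. Without Dnmt3a+/- replicate 2 the differences were -0.47 for Mcts2, -0.23 for Mcts1, -0.48 for Eif2ak2, -0.28 for Tsc1, -0.27 for Mtif2 and -0.21 for Eef2k. By branch, 9 of 10 mTOR genes lay below 0 with a median of -0.23, 4 of 4 eIF2 kinases with -0.17, and 6 of 7 elongation genes with -0.11. All 4 recycling genes lay below 0, with a median of -0.27. Leaving out Dnmt3a+/- replicate 2, these medians were -0.12 for the mTOR genes, -0.11 for the eIF2 kinases, -0.04 for the elongation genes and -0.10 for the recycling genes. In the eIF2 phosphatase and stress branch 6 of 7 lay below 0, and Atf5, a stress-induced factor, stood at 0.25 (SE 0.11) with all Dnmt3a+/- arrays above the wild-type arrays.

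The 5 genes that share only the letters of the symbol behaved as follows. Ago3 read 7.64, 7.54 and 7.60 on wild-type against 7.24, 6.96 and 7.40 on Dnmt3a+/- arrays. Its difference of -0.39 (SE 0.14, limma adjusted p = 0.631) had the genotypes apart and was -0.27 without Dnmt3a+/- replicate 2. Of its 31 used probe sets 28 lay below 0. Ago1, at 8.57, 8.74 and 8.72 on wild-type against 8.54, 8.41 and 8.55 on Dnmt3a+/- arrays, was also apart, with -0.18 (SE 0.11). It stood at -0.13 without Dnmt3a+/- replicate 2, -0.04 after cyclic loess and -0.06 after a second quantile normalization. Ago2, the Argonaute that cleaves its target, stood at -0.19 (SE 0.11) and Ago4 at -0.10 (SE 0.17). The pseudogene Eif5al3-ps, on 1 used probe set, stood at 0.06 (SE 0.15).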

How the data were processed

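Total RNA of KLS cells (20 ng per sample, amplified as whole-transcript cDNA and labelled with biotin, per the labels' protocols) was read on 6 single-colour arrays. The authors deposited processed intensity values, and the submitters' processing notes name RMA and Partek. The sources used here give no versions. The values ran from 1.84 to 22239 on a linear scale with array medians of 59.8 to 61.6, so log2 was taken without a pseudocount. Because the arrays were brought to nearly 1 distribution, a shift of most genes at once is hidden. Precision is limited by the number of arrays.

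Probe sets were named by the platform annotation, with old symbols updated through RefSeq (GRCm38.p6). Of all probe sets 318760 had 1 symbol, 6684 several and 931387 none listed. Of the platform's 22296 symbols, 18006 were current, 4227 were updated and 63 kept. A gene's value was the mean over its named probe sets whose mean lay above the median of all probe sets (log2 5.89). All 20059 genes were fitted with limma 3.58.1 in R 4.3.3 (lmFit, eBayes, no covariate), with Benjamini-Hochberg adjustment over all genes. The fit was tested on simulated data. A list is described by counts and medians beside those over all genes, with no set test.

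The members, role groups and lists were chosen with earlier results of these data known. Values on each array are given for Dnmt3a, for members whose genotypes did not overlap and for the member with the smallest p of each role group. Other genes given on each array (Eif1a, Eif2b2, Eif4a1, Eif4ebp1, Eif5a, Mcts2, Eif2ak2) and Atf5 were picked with their values in view. The alternatives covered the filter, the summary over probe sets, normalization, pseudocount, variance model, array weights, a replicate block and leaving out each array. Genes not found by the rule, Eif1 and Eif3j2 among them, were not analysed here.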

Additional observations from a re-analysis of the deposited data

How the results depend on the processing

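No member passed at adjusted p 0.05 (limma) under any of the 16 alternatives run for the fit, and Dnmt3a (-0.61 to -0.17) did not pass either. The median difference of the 47 genes kept its sign in all 19 alternatives, from -0.23 to -0.04. All 52 genes gave -0.17, and adding Eif2d, listed under an older name, also gave -0.17. Leaving out wild-type replicate 1 and Dnmt3a+/- replicate 2 together gave -0.11. These 3 were chosen after seeing the data. Small counts moved. Of 47, 2 lay lower at an unadjusted p under 0.05. That count was 1 with no filter, 1 with the median of probe sets and 0 with the brightest probe set. It was 0 after cyclic loess and 0 after a second quantile normalization. The count was 3 with a pseudocount of 16, 3 with array weights, and 1 to 2 without single arrays. Of all genes, in the same order, 4.38%, 4.11%, 2.6%, 3.33%, 3.16%, 4.81%, 6.66% and 2.7% to 5.63% lay lower. The 1 higher gene became 0 with the filter at the 75th percentile or the brightest probe set. The higher count was 2 after cyclic loess or a second quantile normalization, and 1 to 2 without single arrays. In either direction, the shares of all genes in these settings were 7.34%, 5.74%, 6.59%, 6.24% and 4.61% to 9.61%. These shares include the lower genes, which made up 4.45%, 2.6%, 3.33%, 3.16% and 2.7% to 5.63% of all genes. The 7 non-overlapping lower genes became 3 with the brightest probe set, 3 after cyclic loess and 3 after a second quantile normalization. Of all genes, 4.87%, 6.46% and 6.57% were apart on the lower side in these settings. Without single arrays there were 7 to 25 such members, against 12.5% to 17.2% of all genes. The 25 came without wild-type replicate 1 (17.2% of all genes), and 15 came without Dnmt3a+/- replicate 3 (16.3%). The 1 non-overlapping higher gene became 2 with no filter, 0 with the filter at the 75th percentile and 0 with the median of probe sets. The count was 0 with the brightest probe set, 2 after cyclic loess, 2 after a second quantile normalization and 1 to 2 without single arrays. Of all genes, in the same order, 6.26%, 6.12%, 6.07%, 7.02%, 6.96%, 6.78% and 9.76% to 15.5% were apart on the higher side.

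Of 256 single-gene values under alternatives, over 16 genes, 7 turned sign. With the brightest probe set Eif4e3 stood at 0.087, Eif4h at 0.10, Eif1a at -0.22 and the eIF4F median at 0.038. Eif6 turned to 0.051 with the median of probe sets, 0.031 after cyclic loess and 0.010 after a second quantile normalization. Without single arrays Eif4a3 ranged from -0.299 to 0.052 and the median of the eIF4E binding proteins from -0.245 to 0.021, both turning sign without Dnmt3a+/- replicate 2. Probe set 4720732 of Eif5a2 ranged from -0.049, without wild-type replicate 2, to 0.646. The cause of these changes was not tested.

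The labels number the arrays 1 to 3 in each genotype. The deviations of same-numbered arrays correlated at -0.05, -0.09 and 0.11 over genes, so the numbers were not taken as pairs, and 2 of 6 arrays correlated best with their own number. With the replicate number as a block, 1 member lay lower at an unadjusted p under 0.05 in place of 2, where 3.79% of all genes did.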
